A study of Oryza sativa with 6 samples.

Results

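The auxin synthesis genes of the rice grain were followed as 6 loci: the tryptophan aminotransferases TAR1 (LOC_Os05g07720) and FIB (LOC_Os01g07500), the flavin monooxygenases YUC9 (LOC_Os01g16714), YUC11 (LOC_Os12g08780) and YUC12 (LOC_Os02g17230), and TGW6 (LOC_Os06g41850), a hydrolase of IAA-glucose. They were chosen by locus identifier out of 91080 features in the deposited table, which gives these 6 loci no symbol or description. Of the 6, 4 had enough reads to be among the 22937 features tested. RNA was sequenced from seeds of rice, Oryza sativa, during grain filling (15 DAF in the labels), of plants grown in a paddy field. There were 3 libraries of the near-isogenic line NIL-gaf1, whose genotype label is mutant. Another 3 were of NIL-GAF1, with the genotype label wild type. Library titles carry the line codes F1287gif2 for the mutant and F1288GIF2 for the wild type. Where 3 values are given for a line, they are those of libraries 1, 2 and 3 in that order. Near-isogenic lines are bred to be alike outside a small part of the genome. Here the line names carry gaf1 or GAF1 and the titles gif2 or GIF2, but the labels give no locus identifier for either. The labels also do not say whether libraries came from separate plants or how many grains were pooled. The p-values thus measure the spread between libraries, which may be technical.

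Indole-3-acetic acid (IAA), the main auxin of plants, is made from tryptophan by successive enzymes. Aminotransferases of the TAA1/TAR family turn tryptophan into indole-3-pyruvate, and YUC flavin monooxygenases turn that into IAA. In rice grains, TAR1, YUC9 and YUC11 are known to be transcribed in the endosperm after fertilization, when the grain gathers IAA. IAA can also be stored as conjugates with sugars or amino acids, which hydrolases such as TGW6 can open.

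Total counts were 21200210 to 25402680 in mutant and 17236796 to 22454000 in wild-type libraries. The scale on which lines are compared matters here, and the lines differed in the share of counts that endosperm markers held. The 11 endosperm markers held 0.275% to 8.11% of mutant and 19.8% to 21.2% of wild-type counts. Levels of 1 gene across libraries are therefore given as normalized CPM, which are counts scaled with TMM factors, and levels of different genes as the authors' FPKM, which are per length and per total count. Fold changes are mutant over wild type, so positive log2 values mean more transcript in the mutant. Of all tested features, 31.2% were called in either direction (edgeR quasi-likelihood test, adjusted p under 0.05), 15.4% lower and 15.8% higher in the mutant. In 49% the libraries of the lines did not overlap. With scaling to total counts 75.6% were called, 71.9% higher and 3.76% lower, and the tested features had a median log2 fold change of 1.27, against 0.06 with TMM. The median was 0.41 with total-count scaling after the 25 most abundant features were removed. The cause of these shifts was not tested.

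YUC11 and YUC9, the monooxygenases of the last step, fell in the mutant, while the aminotransferases TAR1 and FIB did not pass the test. Of the 4 tested genes 2 were called lower, beside 15.4% of all features, and none was called higher. The same 2 were called lower with scaling to total counts, beside 3.76% of all tested features. TAR1 and FIB were called higher on that scale, beside 71.9% of all tested features. Their log2 fold changes there were 0.96 and 1.64, against a median of 1.27 over all tested features. The libraries of the lines did not overlap for YUC9 and YUC11, with all mutant libraries lower, as in 23.8% of all tested features.

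**Figure D1:**
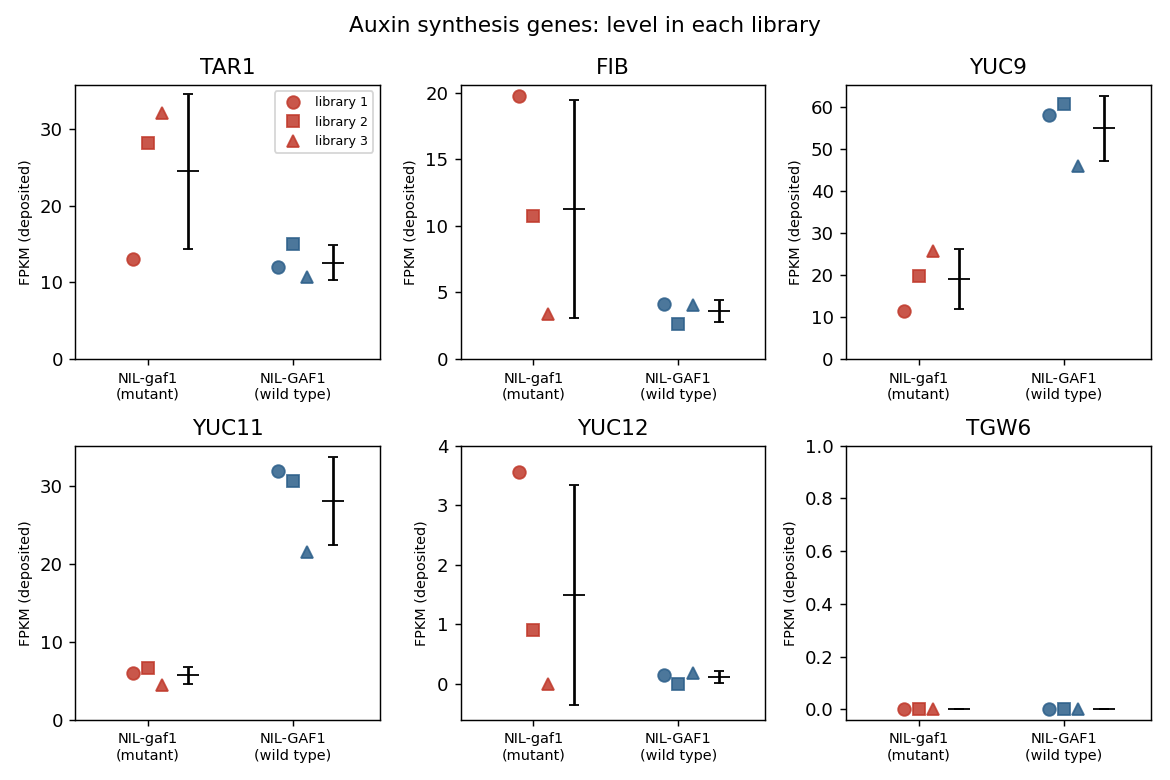
Deposited FPKM (y axis, linear, own range in each panel) of the 6 auxin synthesis genes in the 3 NIL-gaf1 (mutant) and 3 NIL-GAF1 (wild type) libraries, with the mean and SD in black and a marker shape for each library number. YUC9 and YUC11 lie lower in every mutant library than in any wild-type library, TAR1 lies above or within the wild-type range, FIB and YUC12 spread widely in the mutant, and TGW6 is at 0 throughout.

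TAR1 makes indole-3-pyruvate from tryptophan and lies on chromosome 5, 4152905 to 4155880 (coordinates as in the deposited table, whose genome build is not stated in the labels). It was at 15.5, 40.1 and 61.9 normalized CPM in NIL-gaf1 seeds, and at 37.3, 53.6 and 36.5 in NIL-GAF1 seeds. The lines overlapped: mutant library 1 was below, library 2 within and library 3 above the wild-type range. The log2 fold change was -0.12 (SE 0.43, edgeR adjusted p = 0.86). Its sign depended on the scaling and on single libraries. It was 0.96 with scaling to total counts (edgeR adjusted p = 0.018), 0.18 when the 25 most abundant features were removed first, 0.27 without mutant library 1 and 0.08 without wild-type library 2.

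FIB is an aminotransferase of the same family and lies on chromosome 1, 3577473 to 3579035. It was at 12.2, 7.95 and 3.41 normalized CPM in NIL-gaf1 seeds, against 6.74, 4.94 and 7.18 in NIL-GAF1 seeds. Mutant libraries 1 and 2 were above the wild-type libraries and mutant library 3 was below them. The log2 fold change was 0.32 (SE 0.42, edgeR adjusted p = 0.59). Without mutant library 1 it was -0.14, and with scaling to total counts it was 1.64 (edgeR adjusted p = 0.016). FIB was highest in the mutant library in which TAR1 was lowest, and lowest in the one in which TAR1 was highest. A second feature at the same locus, OS01G0169851 (3581437 to 3581859), had 65, 41 and 18 counts in NIL-gaf1 seeds, and 13, 10 and 15 in NIL-GAF1 seeds. Adding it to FIB gave a log2 fold change of 0.31.

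YUC11 turns indole-3-pyruvate into IAA and lies on chromosome 12, 4515673 to 4517450. It was at 3.99, 5.35 and 4.87 normalized CPM in NIL-gaf1 seeds, and at 56.3, 61.6 and 41.7 in NIL-GAF1 seeds. All mutant libraries were far below all wild-type libraries, and they were close to each other, at 4.74 ± 0.69 against 53.2 ± 10.3 (mean ± SD, n = 3 libraries each). YUC11 was 11.2-fold lower in the mutant (log2 fold change -3.49, SE 0.20, edgeR adjusted p = 1.3e-04), and 226 of the 22937 tested features had a lower log2 fold change. It was -2.30 with scaling to total counts. With 1 library left out at a time it ranged over -3.64 to -3.37 and was called each time.

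YUC9 has the same role and lies on chromosome 1, 9488825 to 9493964. It was at 8.46, 17.5 and 30.9 normalized CPM in NIL-gaf1 seeds, against 113, 134 and 98.1 in NIL-GAF1 seeds. The lines did not overlap, but the mutant libraries differed among themselves far more than for YUC11, at 18.9 ± 11.3 against 115 ± 18.2 in wild type (mean ± SD, n = 3 libraries each). YUC9 was 6.08-fold lower in the mutant (log2 fold change -2.60, SE 0.42, edgeR adjusted p = 0.0034), and 534 tested features had a lower log2 fold change. It was -1.53 with scaling to total counts and -3.17 without mutant library 3. With 1 library left out at a time it was called each time.

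YUC12, another monooxygenase (chromosome 2, 9877605 to 9879302), was near the limit of detection in the wild type and in mutant library 3, and did not pass the filter on low counts. It had 89, 26 and 0 counts in NIL-gaf1 seeds, and 3, 0 and 5 counts in NIL-GAF1 seeds. Nearly all reads were in mutant libraries 1 and 2, and the lines overlapped because mutant library 3 had none. With no filter the log2 fold change was 2.42 (SE 1.47, edgeR adjusted p = 0.32). When mutant library 3 was left out the gene passed the filter, at 2.80 (edgeR adjusted p = 0.037). It also passed the filter without wild-type library 1, 2 or 3, at 2.41, 1.72 and 2.96. In those fits it was not called (edgeR adjusted p = 0.37, 0.45 and 0.30). TGW6 (chromosome 6, 25093242 to 25094294) had no count in any of the 6 libraries. At this depth a count of 0 allows up to 0.0753 to 0.102 normalized CPM in mutant and 0.205 to 0.244 in wild-type libraries, taking 3 counts per library as the limit and counting error alone.

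**Figure D2:**
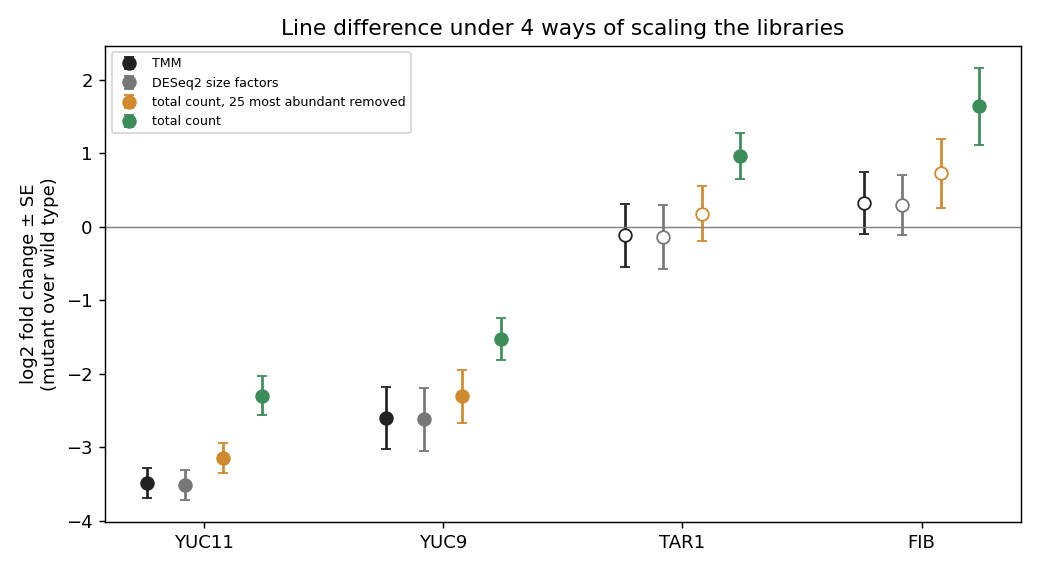
Log2 fold change (mutant over wild type, y axis) with its standard error for the 4 tested auxin synthesis genes under 4 ways of scaling the libraries, filled where the edgeR adjusted p is under 0.05. YUC11 and YUC9 are negative and filled under all 4, whereas TAR1 is at -0.12 with TMM and 0.96 with total counts, and FIB at 0.32 and 1.64.

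The order of the levels per length differed between the lines. In mutant grains TAR1 came first with 24.5 ± 10.1 FPKM, before YUC9 with 19.0 ± 7.18, FIB with 11.3 ± 8.18, YUC11 with 5.69 ± 1.12 and YUC12 with 1.49 ± 1.85 (mean ± SD, n = 3 libraries). Neighbours among the first 4 overlapped in their ranges over libraries. Within each mutant library TAR1 was above YUC9 and YUC9 above YUC11, so that it was the place of FIB that differed between libraries. In wild-type grains YUC9 was highest with 55.0 ± 7.79 FPKM, followed by YUC11 with 28.04 ± 5.65, TAR1 with 12.6 ± 2.25, FIB with 3.61 ± 0.82 and YUC12 with 0.112 ± 0.099. Each of the first 4 was separated there from the next by ranges that did not overlap. YUC12 and TGW6 were last in both lines and both at 0 in 1 library of each line. In mutant libraries 1 and 2 YUC12 was at 3.55 and 0.914 FPKM, where TGW6 had no count.

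A ratio of 2 genes within a library does not depend on how libraries are scaled to each other. Per length, YUC9 to TAR1 was 0.879, 0.703 and 0.802 in NIL-gaf1 seeds, against 4.86, 4.03 and 4.32 in NIL-GAF1 seeds. The ratio was nearly the same in all libraries of a line, and 5.55-fold lower in the mutant (difference of mean log2 ratios -2.47). YUC9 and TAR1 thus kept their proportion within each line although both varied widely between mutant libraries. TAR1 to YUC11 was 2.20, 4.24 and 7.19 in NIL-gaf1 seeds, against 0.375, 0.492 and 0.495 in NIL-GAF1 seeds. TAR1 was above YUC11 in every mutant library and below it in every wild-type library, a 9.01-fold difference.

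YUC9 to YUC11 was 1.93, 2.98 and 5.77 in NIL-gaf1 seeds, against 1.82, 1.98 and 2.14 in NIL-GAF1 seeds, so the lines overlapped. FIB to TAR1 spread from 0.105 to 1.51 in the mutant and from 0.177 to 0.377 in wild type. The exact two-sided permutation p was 0.1 for YUC9 to TAR1 and for TAR1 to YUC11, the smallest that 3 against 3 libraries allows. It was 0.3 for YUC9 to YUC11 and 0.7 for FIB to TAR1, by the same exact test. Adjusted over the 4 ratios these p-values were 0.2, 0.2, 0.4 and 0.7, so no ratio passed, as none could in this design.

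**Figure D3:**
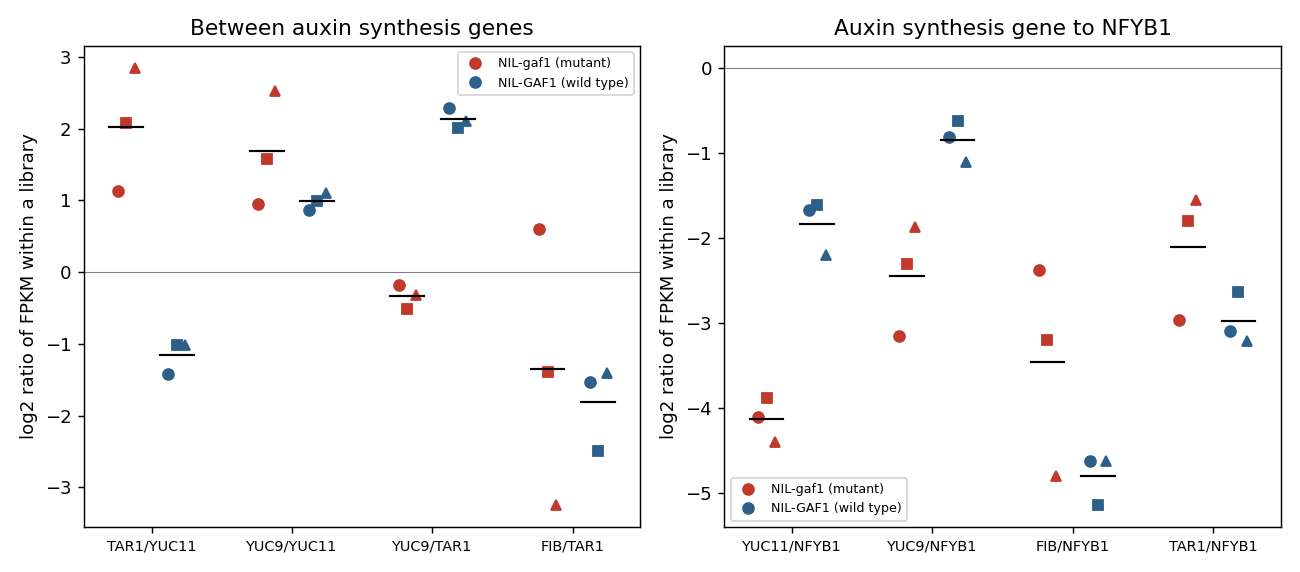
Log2 ratio of deposited FPKM of 2 genes within each library (y axis), for pairs of auxin synthesis genes (left) and for each gene over NFYB1 (right), with NIL-gaf1 left of NIL-GAF1 in each pair of columns, 1 marker per library and the mean as a line. The mutant and wild-type markers stand apart for TAR1/YUC11, YUC9/TAR1, YUC11/NFYB1 and YUC9/NFYB1, and overlap for the other 4 ratios.

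Whole grains hold several tissues, and in bulk RNA fewer cells of a type and less RNA per cell cannot be told apart. Of the 11 endosperm markers 5 fell (45.5%, beside 15.4% of all tested features) and 6 did not pass (median log2 fold change -2.58). Those 6 ranged over -4.21 to -0.92. The number called lower was 9 with the DESeq2 Wald test or limma-voom, 4 with total-count scaling and 3 with no filter. In those 4 fits 17.7%, 15.8%, 3.76% and 6.37% of all tested features were called lower. The summed level of the 11 was 1464 to 70154 normalized CPM in mutant and 284277 to 325240 in wild-type libraries. Of the 9 embryo and aleurone markers 7 fell (77.8%) and 2 did not pass, with sums of 300.1 to 1529 in mutant and 3641 to 4812 in wild-type libraries. Of those 2, LEA3 had a log2 fold change of -1.59 (edgeR adjusted p = 0.066). LOC_Os03g51690 did not go down, at 0.12 (SE 0.23, edgeR adjusted p = 0.72), with 9.81 normalized CPM in mutant and 9.04 in wild type on average. None of the 6 green pericarp markers passed, with sums of 470 to 905 in mutant and 540 to 725 in wild-type libraries. No marker was at 0 in any library. The number of endosperm markers called lower was 1 without mutant library 2, 10 without mutant library 1, 9 without mutant library 3 and 3 without any 1 wild-type library. That of embryo and aleurone markers was 4 without mutant library 2 or wild-type library 1 or 3. With 1 library left out, 8.63% to 18% of all tested features were called lower and 8.61% to 17% higher. With scaling to total counts 5 green pericarp markers were called higher (83.3%, beside 71.9% of all tested features). With 1 library left out at most 1 of these markers was called in either direction. Mutant library 1 was lowest and mutant library 3 highest in both the endosperm and the embryo and aleurone sums, the same order as YUC9 and TAR1 in these libraries. The part of these markers in the results on YUC9 and YUC11 was not tested.

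NFYB1, an endosperm transcription factor reported to act on YUC11 in rice, was 1 of the 11 endosperm markers and served as a reference for ratios. Whole-grain libraries do not show whether NFYB1 transcripts came from the starchy endosperm or the aleurone. NFYB1 was the second least lowered of the 11, so ratios to it and to more strongly lowered markers differ. It was at 47.0, 54.2 and 70.6 normalized CPM in NIL-gaf1 seeds, and at 124, 130 and 132 in NIL-GAF1 seeds (log2 fold change -1.16, SE 0.18, edgeR adjusted p = 0.003). Scaled to total counts, that fold change was 0.00. Per NFYB1, YUC11 was 0.0583, 0.0677 and 0.0473 in NIL-gaf1 seeds, against 0.313, 0.326 and 0.218 in NIL-GAF1 seeds. Over this marker the ratio was 4.92-fold lower, with no overlap between lines. YUC9 per NFYB1 was 0.112, 0.202 and 0.273 in NIL-gaf1 seeds, and 0.569, 0.647 and 0.466 in NIL-GAF1 seeds, a 3.03-fold lower ratio, also with no overlap.

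TAR1 per NFYB1 was 0.128, 0.287 and 0.340 in NIL-gaf1 seeds, against 0.117, 0.160 and 0.108 in NIL-GAF1 seeds, and FIB per NFYB1 ranged over 0.0359 to 0.193 in mutant and 0.0284 to 0.0406 in wild type. Both overlapped between lines. The exact permutation p was 0.1 for YUC11 and YUC9, 0.2 for TAR1 and 0.3 for FIB (adjusted over the 4 genes 0.2, 0.2, 0.27 and 0.3).

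The fall relative to the endosperm depended on the marker it was set against. Over the 11 markers the difference of mean log2 ratios of YUC11 ranged over -2.30 to 2.99, with all mutant libraries lower for 3 markers, an overlap of the lines for 7 and all mutant libraries higher for 1. YUC9 ranged over -1.60 to 3.69, lower for 4 markers, overlapping for 4 and higher for 3. Over WAXY, whose log2 fold change was the median of the list, YUC9 was 0.0357, 0.0369 and 0.0341 in NIL-gaf1 seeds, against 0.0341, 0.0453 and 0.0287 in NIL-GAF1 seeds. YUC11 was 0.0185, 0.0124 and 0.00591 in NIL-gaf1 seeds, against 0.0187, 0.0228 and 0.0134 in NIL-GAF1 seeds. The lines overlapped for both, so these genes were not separated from this marker as they were from NFYB1. TAR1 was above in all mutant libraries over 10 of the 11 markers, with an overlap of the lines over NFYB1 alone. FIB was above in all mutant libraries over 6, with an overlap for the others.

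The rest of the pathway was read from lists of loci. The table describes only part of these loci, and the others were listed by identifier from general knowledge of rice genes and are named by locus. Across 41 loci in 5 lists, 29 were tested, of which 6 rose, 4 fell and 19 did not pass. The shares were 20.7% higher and 13.8% lower, beside 15.8% and 15.4% of all tested features, with a median log2 fold change of 0.31 against 0.06 for all tested features. With scaling to total counts 22 (75.9%, beside 71.9% of all features) were called higher and 1 lower, with a median of 1.49 against 1.27. Without mutant library 2, 4 were called higher and 2 lower (13.8% and 6.9%, beside 8.61% and 8.63% of all tested features).

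Of the 11 further loci listed as flavin monooxygenases, only 3 passed the filter on low counts. LOC_Os12g32750 was at 5.17, 3.52 and 2.49 normalized CPM in NIL-gaf1 seeds, against 0.649, 1.30 and 0.547 in NIL-GAF1 seeds. All mutant libraries were above all wild-type libraries (log2 fold change 2.18, SE 0.44, edgeR adjusted p = 0.0081), the opposite direction to YUC9 and YUC11. It had at most 206 counts in a library. LOC_Os01g53200 and LOC_Os03g06654 had log2 fold changes of 0.77 and 0.47 (edgeR adjusted p = 0.20 and 0.22). The table counted 0 to 33 reads per library for the other 8. With no filter on low counts, 1 of them, LOC_Os01g45760, was also called higher (edgeR adjusted p = 0.045), with 31 counts in all in the mutant and 0 in the wild type.

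Tryptophan, the substrate of TAR1 and FIB, is made from chorismate by anthranilate synthase and later enzymes. Of 12 tested loci of this list 2 rose, 2 fell and 8 did not pass (median log2 fold change 0.11). The shares, 16.7% higher and 16.7% lower, were near the 15.8% and 15.4% of all tested features. The alpha subunits of anthranilate synthase, which catalyses the committed step, went opposite ways. ASA1 was at 21.5, 47.0 and 74.5 normalized CPM in NIL-gaf1 seeds, against 273, 265 and 218 in NIL-GAF1 seeds. It was 5.28-fold lower in the mutant (log2 fold change -2.40, SE 0.41, edgeR adjusted p = 0.0042), and -1.33 with scaling to total counts. OSASA2 was at 49.5, 42.6 and 31.8 normalized CPM in NIL-gaf1 seeds, against 19.5, 21.7 and 18.3 in NIL-GAF1 seeds. It was higher in every mutant library (log2 fold change 1.06, SE 0.18, edgeR adjusted p = 0.00445), and 2.32 with scaling to total counts.

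The beta subunits ASB1 and ASB2 did not pass, with log2 fold changes of 0.33 and 0.16 (edgeR adjusted p = 0.26 and 0.48). LOC_Os06g42560 of this list rose (log2 fold change 0.66, edgeR adjusted p = 0.0055), and LOC_Os03g58300 fell (-1.71, edgeR adjusted p = 0.011). The call of LOC_Os03g58300 was lost without mutant library 2 (edgeR adjusted p = 0.051) and with scaling to total counts (-0.62, edgeR adjusted p = 0.11). Of 4 loci listed for other routes from tryptophan to IAA, LOC_Os02g42330 rose (log2 fold change 1.21, edgeR adjusted p = 0.031). It alone of the 4 was called (25%, beside 15.8% of all tested features called higher). That call was lost without mutant library 1 (edgeR adjusted p = 0.064) or 2 (0.069), or without wild-type library 1 (0.11) or 2 (0.098). In the same list NIT4, described as a bifunctional nitrilase and nitrile hydratase, was at 0.31 (edgeR adjusted p = 0.23).

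**Figure D4:**
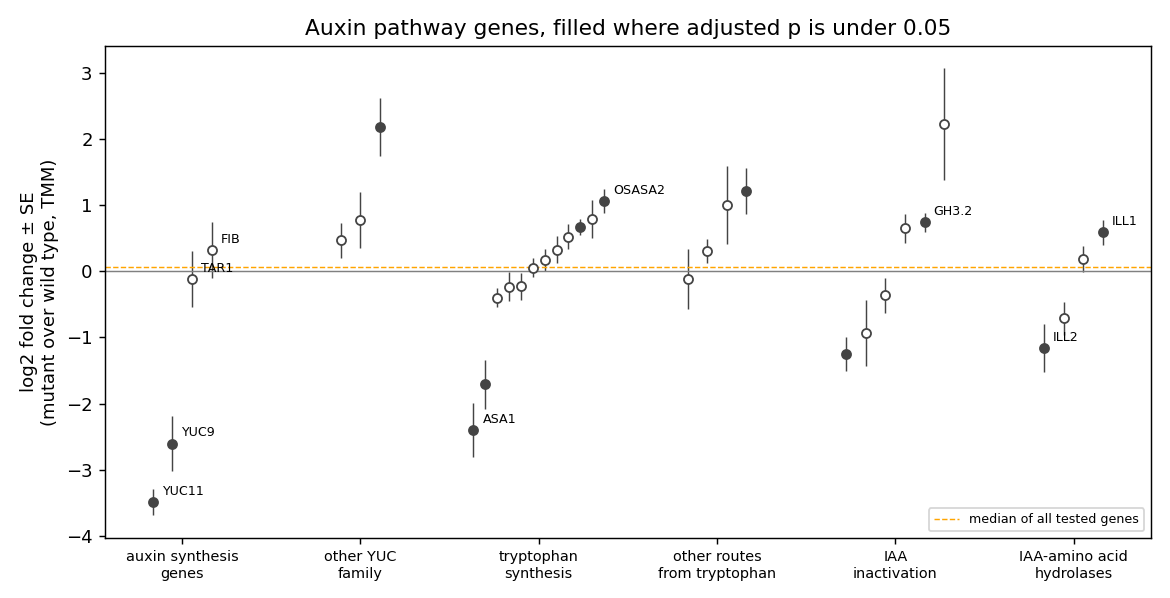
Log2 fold change (mutant over wild type, TMM, y axis) with its standard error for every tested gene of the auxin synthesis genes and of 5 pathway lists, filled where the edgeR adjusted p is under 0.05, with the symbol of each auxin synthesis gene and of each filled list gene that has one in the deposited table, and the median of all tested features as a dashed line. YUC11, YUC9 and ASA1 have the lowest values, OSASA2, GH3.2 and ILL1 are filled above 0, and most of the 29 list genes are open.

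At the other end of the pathway, enzymes that inactivate IAA gave 1 rise, 1 fall and 4 that did not pass among 6 tested loci. Here too the shares, 16.7% each way, were near the 15.8% higher and 15.4% lower of all tested features. GH3.2, which joins IAA to amino acids, was at 46.4, 57.1 and 48.7 normalized CPM in NIL-gaf1 seeds, against 29.4, 27.7 and 34.0 in NIL-GAF1 seeds (log2 fold change 0.74, SE 0.15, edgeR adjusted p = 0.0074). GH3.8, the most abundant of the tested GH3 genes in the list in raw counts, had a log2 fold change of 0.65 (edgeR adjusted p = 0.057), and DAO, which oxidizes IAA, of -0.36 (edgeR adjusted p = 0.33). LOC_Os03g48740 of the same list fell (log2 fold change -1.24, edgeR adjusted p = 0.0091), a call lost with scaling to total counts (-0.08, edgeR adjusted p = 0.79).

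Of the 4 hydrolases that free IAA from amino acids, the class of release enzyme beside TGW6, ILL1 rose and ILL2 fell. These calls made 25% each way, beside 15.8% higher and 15.4% lower of all tested features. ILL1 was at 315, 371 and 396 normalized CPM in NIL-gaf1 seeds, against 237, 238 and 244 in NIL-GAF1 seeds (log2 fold change 0.59, SE 0.19, edgeR adjusted p = 0.047). ILL2 was at 1.31, 0.927 and 0.647 in NIL-gaf1 seeds, against 2.11, 1.86 and 2.53 in NIL-GAF1 seeds (log2 fold change -1.17, edgeR adjusted p = 0.043), and 0.10 with scaling to total counts. Both calls were lost when any library other than mutant library 1 was left out (edgeR adjusted p = 0.082 to 0.16 for ILL1 and 0.068 to 0.14 for ILL2). ILL6 and ILL5 did not pass, at -0.71 and 0.19 (edgeR adjusted p = 0.064 and 0.50).

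Among 1192 genes with a symbol and a mean of at least 5 normalized CPM, the pattern over the 6 libraries most like that of YUC9 was that of ASA1. The root mean square difference of their centred log2 levels was 0.133, against a median of 1.51 over these genes. WAXY, the granule-bound starch synthase of amylose, followed at 0.198 and OLE16, an oil-body oleosin, at 0.225. For YUC11 the nearest were HSFC1B, a heat stress transcription factor, at 0.295, SAP5, a zinc finger protein, at 0.359 and PHO1-2, a phosphate transporter, at 0.367, against a median of 1.73. HSFC1B was at 1.14 ± 0.641 normalized CPM in mutant and 15.4 ± 3.47 in wild-type libraries (SD, n = 3 each). Levels were compared as log2(normalized CPM + 0.5), and at so low a mutant level the added 0.5 narrows the differences of HSFC1B between libraries.

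For TAR1 the nearest were NEK1, a protein kinase, at 0.169, IPK2, an inositol polyphosphate kinase, at 0.211 and the heat shock gene HSP17.4 at 0.212, against a median of 0.719. For FIB they were HOX5, a homeobox-leucine zipper gene, at 0.113, MADS15, a MADS-box gene, at 0.164 and PHOT1B, a phototropin, at 0.209, against a median of 0.639. These distances describe the 6 libraries of 2 lines. The lines overlapped for TAR1, FIB and these 6 genes.

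**Figure D5:**
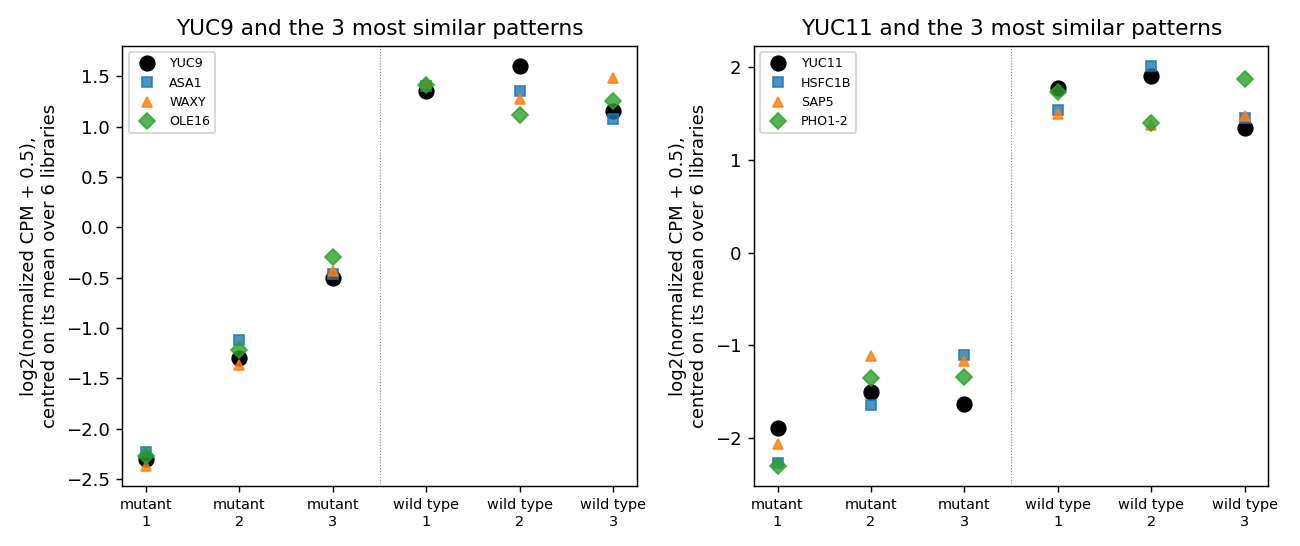
Log2(normalized CPM + 0.5), centred on each gene's mean over the 6 libraries (y axis), for YUC9 (left) and YUC11 (right) with the 3 genes of most similar pattern, in mutant libraries 1 to 3 and then wild-type libraries 1 to 3. YUC9, ASA1, WAXY and OLE16 are all lowest in mutant library 1, while YUC11 varies little between the mutant libraries.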

How the data were processed

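RNA-seq of 6 libraries was analysed, grouped by the genotype label into mutant (NIL-gaf1) and wild type (NIL-GAF1). The submitters' processing notes name Bowtie 0.12.2. How reads were counted, whether by strand, and on which build and annotation, is not given in the sources used here. The authors deposited whole-number read counts per feature, without normalization, and FPKM, per the file headers. In 18936 features (10 counts or more throughout), FPKM equalled counts scaled by total and 1 fixed length within 0.1%.

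Counts were tested with edgeR 4.0.16 in R 4.3.3 (filterByExpr, TMM, estimateDisp, glmQLFit, glmQLFTest, line as the only term; 22937 features), with Benjamini-Hochberg adjustment over all tested features and calls under 0.05. Standard errors are |log2 fold change| over the root of F. Ratios of FPKM within libraries were compared by exact permutation (scipy 1.17.1). Other tools were matplotlib 3.10.9, pandas 2.3.3, numpy 2.4.6, Python 3.11.15, DESeq2 1.42.0 and limma 3.58.1. The edgeR step was tested on simulated data.

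Where a locus had several features (FIB had 2) the one with the largest summed count was used. Features overlapping YUC9 (2) and TAR1 (2) held at most 1 count in a library. Whether reads were split between similar YUC genes was not measured. Of 68 other listed loci 1 was dropped, GH3.5, described as a jasmonic acid enzyme. Named genes were all 6 loci, up to 4 per pathway list with the smallest adjusted p, and the 3 genes of most similar pattern to each tested locus; other list genes were named after their values were seen. Genes and lists were chosen with earlier results of these data known. No library was a copy of another of its line (chi-square per gene 118 to 386 between mutant and 10.9 to 31.3 between wild-type libraries). No sequences are shown, as none was at hand.

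Alternatives were no filter, a mean of at least 5 CPM, DESeq2 size factors, total-count scaling with and without the 25 most abundant wild-type features, limma on log2(FPKM + 1) where FPKM averaged at least 1, limma-voom, the DESeq2 Wald test, the replicate number as a block, all features at a locus summed, an adjusted p under 0.01, each library left out, counts for FPKM, and another endosperm locus for NFYB1. The other 9 endosperm markers in its place were added after seeing the data.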

Additional observations from a re-analysis of the deposited data

How the results depend on the processing

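YUC9 and YUC11 were lower and called under every alternative fit run, at log2 fold changes of -3.17 to -2.25 and -3.64 to -3.37 with 1 library left out. TAR1 changed sign: it was 0.018 with no filter, 0.96 with total-count scaling and 0.83 with limma on log2(FPKM + 1), called in both, 0.18 after removing the 25 most abundant features, and -0.64 to 0.27 with 1 library left out, positive without mutant library 1 (0.27) or wild-type library 2 (0.08). FIB was 1.64, and called, with total-count scaling, and -0.14 to 0.65 with 1 library left out, reversed without mutant library 1. Of the 4 tested auxin synthesis genes, 2 were called higher with total-count scaling, beside 71.9% of all tested features. With limma on log2(FPKM + 1) the number was 1, beside 71%. With 1 library left out it was 0 to 1 (YUC12, without mutant library 3, beside 17% of all tested features). All genes called higher and lower were 16481 and 863 with total-count scaling, 6691 and 2172 after removing the 25 features, 14576 and 868 on the log2(FPKM + 1) scale, and between 2003 and 4040 and between 2009 and 4288 with 1 library left out (2003 and 2009 without mutant library 2, 2216 and 2341 without wild-type library 1). The pathway lists gave 22, 12 and 19 higher under those 3 settings (75.9%, 41.4% and 79.2%, beside 71.9%, 29.1% and 71% of all tested features). They gave 1 lower with total-count scaling (3.45%, beside 3.76%) and 1 lower on the log2(FPKM + 1) scale (4.17%, beside 4.23%). With 1 library left out 4 to 8 were higher (12.9% to 26.7%, beside 8.61% to 17% of all tested features). In the same fits 2 to 5 were lower (6.9% to 16.7%, beside 8.63% to 18%). The difference in log2 FIB to TAR1 ranged over -0.51 to 1.41, reversed without mutant library 1. In place of NFYB1, the other 10 endosperm markers gave other differences in log2 ratio; all but LOC_Os02g15350 were added after seeing the data. For YUC11 they were -1.32 over LOC_Os02g15350, -1.26 over LOC_Os07g08420, -1.10 over LOC_Os01g01470, -0.69 over WAXY, and reversed at 0.55 over LOC_Os05g41970, 1.18 over GLUA1, 1.79 over GLUA2, 2.06 over LOC_Os02g25640 and 2.99 over RAG2. In the same order, YUC9 was at -0.62, -0.56, -0.40, 0.0061, 1.26, 1.88, 2.49, 2.76 and 3.69, and TAR1 at 1.85, 1.91, 2.07, 2.48, 3.73, 4.35, 4.96, 5.23 and 6.16. FIB was at 2.94, 4.19, 4.81, 5.42, 5.69 and 6.63 from WAXY on. Over LOC_Os01g29840 all 4 genes stayed close to their values over NFYB1. The cause of these changes was not tested.

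With the replicate number as a block, YUC9 was at -2.78 (edgeR adjusted p = 0.0051), YUC11 at -3.48 (8.0e-04), TAR1 at -0.31 and FIB at 0.18, and 3001 genes were called higher and 3047 lower. Deviations of same-numbered libraries from their line means had correlations of 0.0883, -0.055 and -0.0268, against -0.0868 to 0.0990 for unlike numbers. No pairing by number was seen, though 3 libraries per line cannot exclude it. Depth limits YUC12 and TGW6.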

Other observations

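Some low-count loci of the flavin monooxygenase list had reads in the mutant alone. LOC_Os01g45760 had 6, 16 and 9 counts in mutant libraries 1, 2 and 3, and LOC_Os01g12490 had 8, 2 and 6, with 0 in each wild-type library for both. LOC_Os07g25540 had 1, 1 and 4 counts in mutant libraries and 0 in each wild-type library. In mutant libraries LOC_Os01g12490 was at 0.201, 0.053 and 0.204 normalized CPM and LOC_Os07g25540 at 0.025, 0.026 and 0.136. These values are below the limit of 3 counts in wild-type libraries, 0.205 to 0.244 normalized CPM. A count of 0 in a wild-type library therefore does not exclude such a level there. In the edgeR fit with no filter on low counts the adjusted p was 0.045 for LOC_Os01g45760, 0.095 for LOC_Os01g12490 and 0.25 for LOC_Os07g25540, the first of which passed. LOC_Os11g10140 and LOC_Os11g10170 had 1 and 3 counts in wild-type library 1 and 0 in all other libraries.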
